A study of Mus musculus with 9 samples.

Results

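The families of transforming growth factor beta (TGF-beta) and bone morphogenetic protein (BMP) were followed in sorted mouse liver stroma before and after birth. Members were all genes whose symbol belongs to BMP, GDF, TGF-beta, activin or inhibin ligands, their receptors, Smads, Id genes, latent TGF-beta binding proteins or secreted antagonists. The symbol rule found 68 of the 19938 genes measured, each through 1 probe set. Gdf1, Gdf15 and Tgfbr3l were not analysed here.

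Stromal cells were sorted as CD45-, Ter119- and DsRed+ from livers of C57BL/6 mice of the genotype Cxcl12DsRed/+, so all 3 groups carry 1 reporter allele at Cxcl12, the gene of a chemokine that holds blood stem cells in their niche. The groups were embryonic day E15.5 and postnatal days P5 and P10, with 3 Affymetrix arrays each. The labels call the 3 samples of a stage independent replicates and do not say whether they were separate animals or pools, so p-values measure the spread between these samples. The comparisons ask how the same sorted population differed between the fetal stage and the 2 postnatal stages.

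TGF-beta and BMP ligands are secreted dimers that bring together type I and type II receptor kinases. The type I kinase phosphorylates receptor-regulated Smads, Smad1, Smad5 and Smad9 on the BMP side and Smad2 and Smad3 on the TGF-beta and activin side, and these enter the nucleus with Smad4. Id genes and the inhibitory Smads are direct targets, and secreted proteins such as follistatin and noggin hold ligands away from receptors. In liver, TGF-beta drives collagen production by hepatic stellate cells, and BMP signals to hepatocytes turn on the iron hormone gene Hamp.

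Values are log2 signals, so a difference of 1 is a 2-fold change. Differences are given ± SE with n = 3 arrays a stage, means ± SD, and genes with an adjusted p under 0.05 in limma over all genes were called. The median log2 signal of the arrays lay between 6.22 and 6.45, and the number of arrays limits the precision. The labels name no array date, and any batch along with stage cannot be told apart from it. The sorted samples were not of 1 cell type. Ptprc, which encodes CD45, had a mean of 5.05 ± 0.073 at E15.5, below percentile 30 of all genes (5.68), while the albumin gene Alb of hepatocytes lay between 13.03 and 13.22 on all 9 arrays. All 12 stellate markers examined were lower at P5, and the log2 of their summed signal was 13.38 to 13.67 at E15.5, 11.44 to 12 at P5 and 11.41 to 11.83 at P10. Of 10 hepatocyte markers, 9 were higher at P5, with a log2 summed signal of 15.22 to 15.32 at E15.5, 16.07 to 16.10 at P5 and 15.91 to 16.13 at P10. In such bulk samples, fewer cells of a type and less RNA per cell cannot be told apart. Sinusoidal endothelial markers stood apart on 2 arrays: the log2 summed signal of 10 genes was 10.21 to 10.44 at E15.5 and 10.23 to 10.76 at P10 but ran from 9.91 to 11.96 at P5. The marker Clec4g had 6.63 on P5 array 1 and 9.78 and 9.41 on P5 arrays 2 and 3. Where a gene's call given here ended without P5 arrays 2 and 3, both values are given. This fit was added once the data had been seen, and its lone P5 array is taken to vary as arrays of the remaining stages do.

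Most members that changed after birth were lower than at E15.5. The comparisons of P5 and P10 with E15.5 share the 3 E15.5 arrays. At P5, 37 of 68 members were called, 54.4%, where 35.6% of all genes were called. Of these, 26 were lower, 38.2% against 17.7% of all genes, and 11 were higher, 16.2% against 17.9%, which is near the background. At P10, 36 members were called, 52.9% against 38.7% of all genes: 30 were lower (44.1% against 18.6%) and 6 higher (8.82% against 20.1%). Between P5 and P10, 11 members were called, 16.2% against 5.65% of all genes. All 11 were lower (2.89% of all genes were) and 0 were higher (2.76%). Without P5 arrays 2 and 3, fewer members were called lower at P5 and from P5 to P10. Fewer of all genes were called in these comparisons as well. At an unadjusted p under 0.05 in limma, 2 members were higher and 22 lower at P10 than at P5. At that level, 1995 of all 19938 genes were higher and 1616 lower.

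Changes of the members were larger in size than those of all genes. The median absolute difference of the members was 0.46 at P5 and 0.44 at P10, where that of all genes was 0.20 and 0.21. The signed median was -0.06 at P5 and -0.20 at P10, beside 0.03 and 0.02 over all genes. A difference of at least 2-fold was called for 19 of 68 members at P5, 21 at P10 and 4 between P5 and P10, where 14.0%, 17.3% and 1.21% of all genes passed. The arrays of P5 and E15.5 did not overlap for 39 members, those of P10 and E15.5 for 44, and those of P10 and P5 for 26, where 45.2%, 51.7% and 20.2% of all genes did not overlap. The members were brighter than the average gene: 6 of 68 had means below percentile 30 at all stages, against 27.4% of all genes. Among the 14479 genes above that level in at least 1 stage, 48.2% were called at P5, 51.7% at P10 and 8.87% between P5 and P10. Of the 68 members, 54.4%, 52.9% and 16.2% were called, so the excess at P5 and P10 is small against these genes. Shares by direction and the median size were not taken over these genes alone.

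The count of higher members depended on the scaling. Quantile normalisation of the deposited values moved the median of all genes from 0.03 to 0.12 at P5 and from 0.02 to 0.15 at P10. Then 22 members were higher and 25 lower at P5, and 20 higher and 28 lower at P10. Of all genes, 48% were then called at P5 and 56.8% at P10, against 35.6% and 38.7% on the deposited scale. Centring each array on the median of all genes gave 11 higher and 29 lower at P10, with 46.5% of all genes called. The 25 pairs of member and comparison newly called after quantile normalisation had differences of 0.15 to 0.66. None of the 84 pairs called on the deposited scale turned direction under either scaling.

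**Figure D1:**
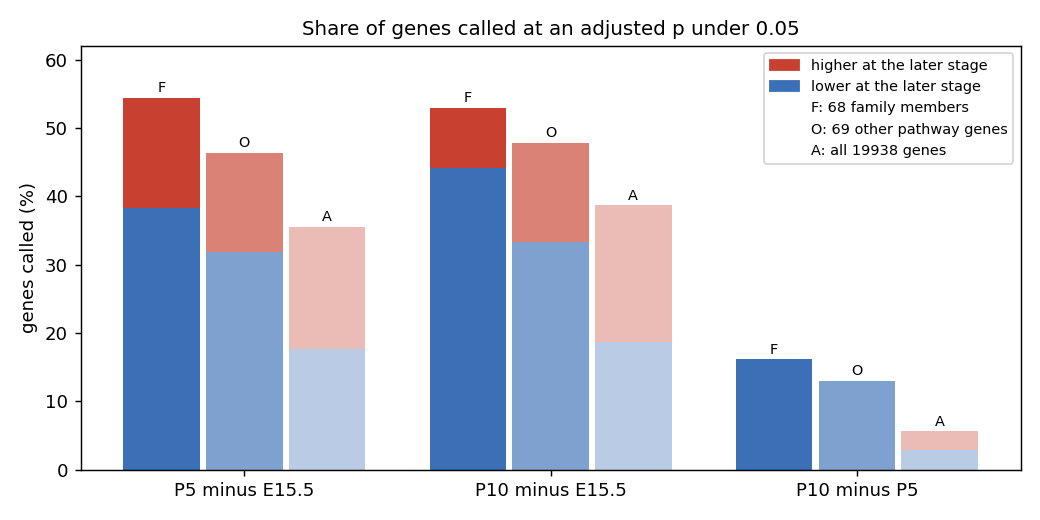
Share of genes called in each comparison (y axis, percent of the genes of the set), for the 68 family members (F), 69 other pathway genes (O) and all 19938 genes (A), split into genes higher and lower at the later stage. The lower part of the F bars, 38.2%, 44.1% and 16.2%, stands above that of all genes, 17.7%, 18.6% and 2.89%.

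By pattern, 25 members were lower at both postnatal stages than at E15.5, 5 were higher at both, and 6 were called higher at P5 without being called at P10. Of the 25, 6 also fell from P5 to P10 and 19 had no call there, beside 368 and 2650 of all 19938 genes. Of the 5, 1 fell from P5 to P10 and 4 had no call there, beside 48 and 2737 of all genes. Of the 6, 2 fell from P5 to P10 and 4 had no call there, beside 58 and 393 of all genes. A further 5 members were called lower at P10 without being called at P5, Smad3 was lower at P5 and Tgfbrap1 higher at P10. The other 25 were called in none of the 3 comparisons, as were 11274 of all genes. Their differences from E15.5 lay between -0.22 and 0.40 at P5 and between -0.39 and 0.24 at P10.

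**Figure D2:**
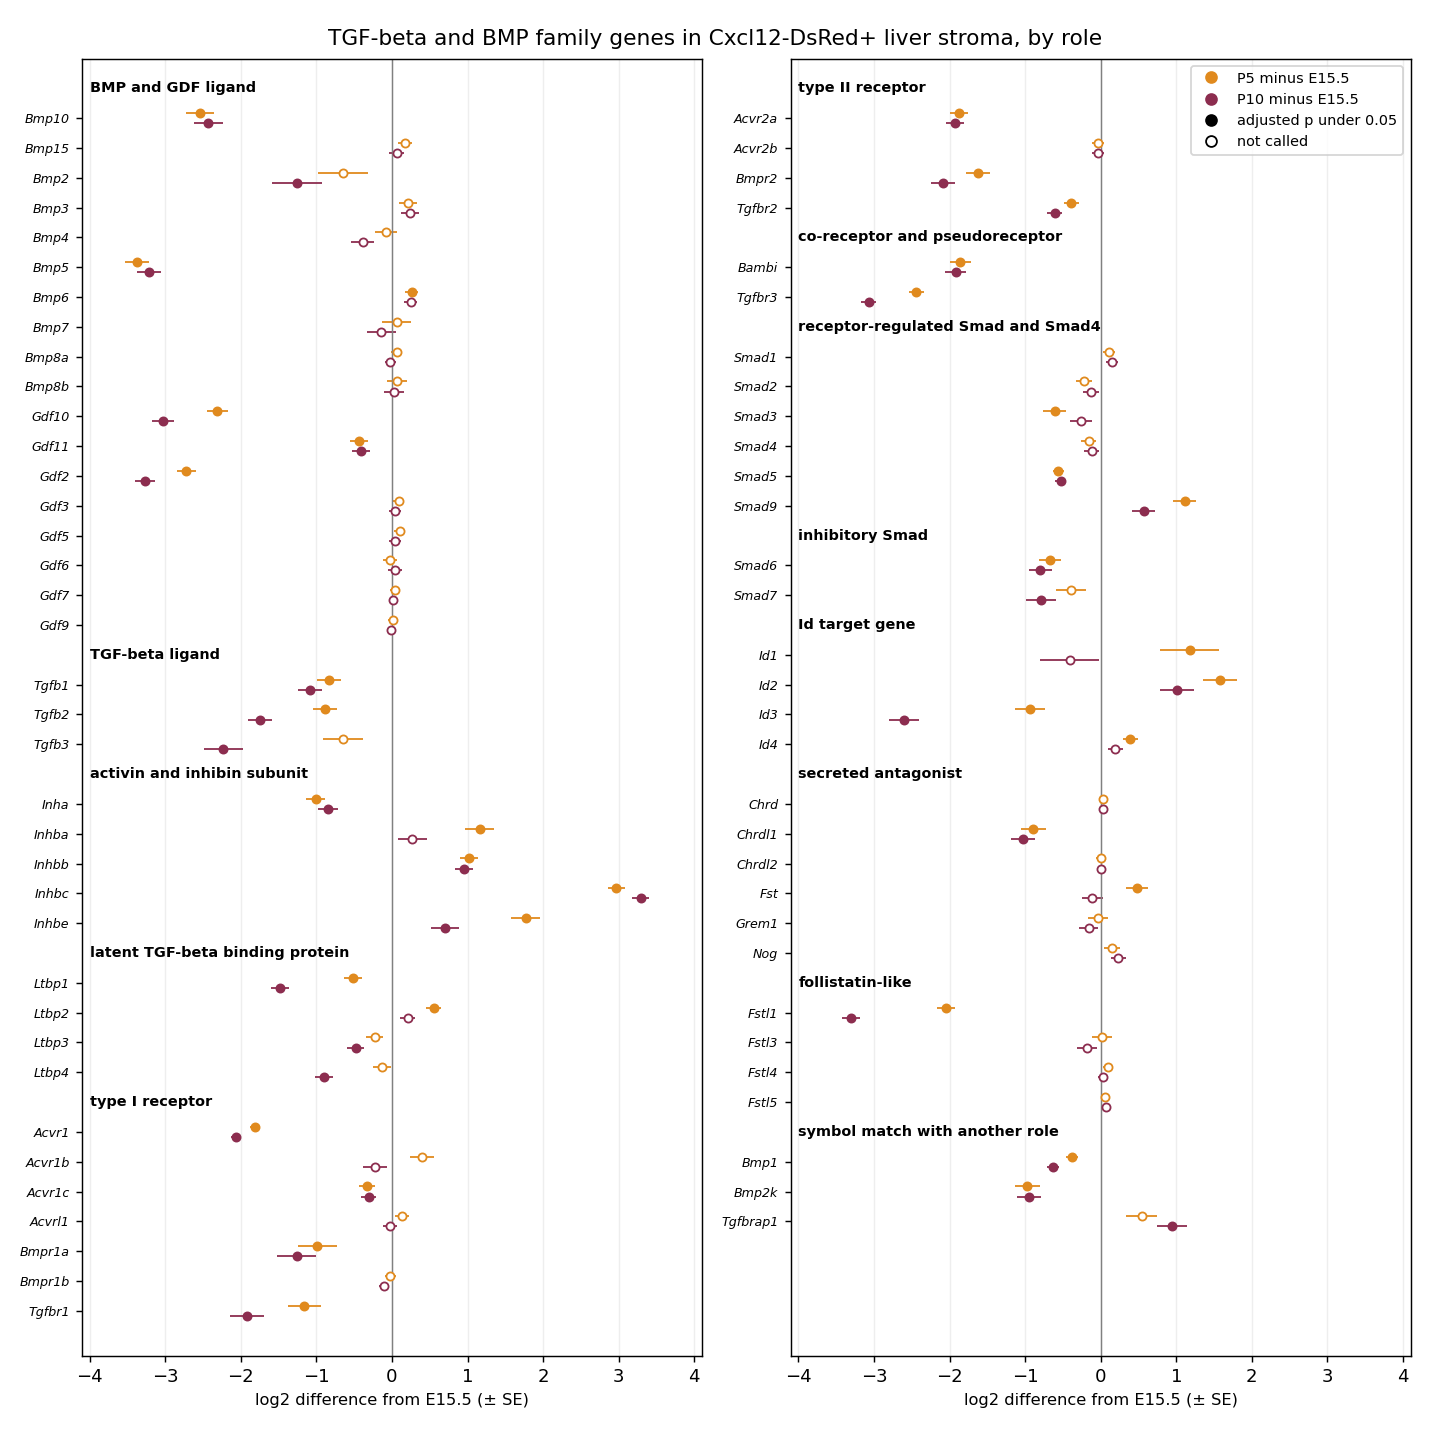
Log2 difference from E15.5 (x axis, ± SE, n = 3 arrays a stage) of all 68 members, ordered by role, at P5 and at P10, with filled points for adjusted p under 0.05. Most receptors and the TGF-beta ligands lie to the left of 0, and Inhbc, at 2.97 and 3.29, lies farthest to the right.

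Among the 18 BMP and GDF ligand genes, a small group fell steeply after birth and most others did not pass the test. At P5, 1 rose, 5 fell and 12 did not pass, and at P10, 0 rose and 6 fell. The 33.3% called at each stage is not above the 35.6% and 38.7% of all genes, so the count over both directions does not set these ligands apart. By direction, 27.8% fell at P5 and 33.3% at P10, against 17.7% and 18.6% of all genes. The share that rose was 5.56% at P5 and 0% at P10, against 17.9% and 20.1%. Gdf2 encodes BMP9, a circulating ligand made in the liver that acts on endothelial cells. Its log2 signals were 11.64, 11.34 and 11.56 at E15.5, 8.90, 8.78 and 8.70 at P5, and 8.38, 8.41 and 7.96 at P10. All E15.5 arrays lay above all postnatal arrays, and the difference was -2.72 ± 0.13 at P5 and -3.27 ± 0.13 at P10, 6.6-fold and 9.62-fold lower (adjusted p = 1.50e-06 and 3.71e-07). P10 lay below P5 on all arrays too, but this step was not called (-0.54 ± 0.13, adjusted p = 0.0564). Gdf10, which encodes a ligand also known as BMP3b, read 11.50, 11.27 and 11.51 at E15.5, 9.39, 9.01 and 8.95 at P5, and 8.36, 8.56 and 8.26 at P10. No stages overlapped, with -2.31 ± 0.14 at P5 and -3.03 ± 0.14 at P10 from E15.5 and -0.72 ± 0.14 from P5 to P10 (adjusted p = 0.0204). That last call ended without P10 array 1 or P10 array 3, with adjusted p = 0.064 to 0.0682 and differences of -0.71 to -0.66.

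Gdf10 and Gdf2 are direct neighbours on mouse chromosome 14 among protein-coding genes of the RefSeq table of GRCm38.p6. Their promoter windows, 250 bases before to 50 after the gene start, are shown because the genes moved together. Capitals mark matches, on either strand, of the TATA box TATAAA or of the GC-rich Smad motif GGCGCC. The windows lie at chr14:33923337-33923636, plus strand, and chr14:33940789-33941088, plus strand, in RefSeq GRCm38.p6, and read 5′ to 3′ on the gene's strand.
Gdf10: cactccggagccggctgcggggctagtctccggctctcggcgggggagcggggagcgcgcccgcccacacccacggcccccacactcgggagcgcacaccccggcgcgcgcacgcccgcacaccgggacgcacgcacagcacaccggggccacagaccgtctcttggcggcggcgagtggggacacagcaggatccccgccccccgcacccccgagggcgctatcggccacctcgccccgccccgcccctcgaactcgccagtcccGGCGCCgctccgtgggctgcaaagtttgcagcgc
Gdf2: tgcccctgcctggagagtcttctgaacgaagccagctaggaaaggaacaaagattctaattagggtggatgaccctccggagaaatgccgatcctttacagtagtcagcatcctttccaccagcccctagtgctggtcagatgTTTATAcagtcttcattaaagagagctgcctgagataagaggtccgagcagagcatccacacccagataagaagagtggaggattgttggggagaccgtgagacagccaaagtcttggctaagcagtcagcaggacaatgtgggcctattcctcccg
The Gdf10 window is 77.3% G and C with GGCGCC starting at position 17, counted from 1 at the first base of the gene. That of Gdf2 is 51% G and C and holds TATAAA, on the opposite strand, from position -107. In the table, 13.6% of 32851 windows hold TATAAA and 11.9% hold GGCGCC. A window was at hand for 48 members. The motif search of members covered 59 windows, of which 8 hold TATAAA (13.6%) and 16 hold GGCGCC (27.1%). These 59 may leave out windows of the 48 members, and the 32851 windows may not have been selected by the same rule. The member shares therefore describe the windows searched, and no difference from the 32851 windows was tested. A match is a description of letters and not a binding site.

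Bmp5, a ligand of the BMP5, BMP6 and BMP7 group, had log2 signals of 11.34, 11.17 and 11.35 at E15.5, 8.21, 7.67 and 7.85 at P5, and 7.82, 8.04 and 8.34 at P10. All postnatal arrays lay below the fetal ones: -3.38 ± 0.16 at P5 and -3.22 ± 0.16 at P10, 10.4-fold and 9.31-fold lower, while P10 minus P5 was 0.16 ± 0.16 and was not called. Bmp10, whose protein shares receptors with BMP9, read 8.91, 8.59 and 8.75 at E15.5, 6.28, 5.78 and 6.57 at P5, and 6.15, 6.33 and 6.48 at P10. The stages before and after birth did not overlap, with -2.54 ± 0.19 at P5 and -2.43 ± 0.19 at P10 (adjusted p = 1.65e-05 and 1.48e-05). Smaller decreases were called for Gdf11, a ligand close to myostatin, at -0.44 ± 0.12 at P5 and -0.41 ± 0.12 at P10. Leaving out E15.5 array 1 or 3 ended both calls, P5 array 3 the first, and P10 array 2 or 3 the second (adjusted p = 0.0515 to 0.0623 at P5 and 0.068 to 0.0821 at P10, differences -0.41 to -0.32). Quantile normalisation ended the P10 call too, and the P5 difference was -0.32 without P5 arrays 2 and 3 (adjusted p = 0.193).

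Bmp2, known in liver as an endothelial ligand in iron control, varied within P5. Its signals were 8.18, 7.93 and 8.07 at E15.5, 6.77, 7.31 and 8.17 at P5, and 6.45, 6.74 and 7.23 at P10. The P5 arrays ran from near the E15.5 level on array 3 down to the P10 level on array 1, and P5 minus E15.5 was -0.65 ± 0.33 (adjusted p = 0.178). P10 lay below E15.5 on all arrays (-1.26 ± 0.33, adjusted p = 0.0161). The P10 call ended without E15.5 array 1, P10 array 1 or P10 array 2 (-1.22 to -1.08, adjusted p = 0.051 to 0.0598), and without P5 array 3 the P5 difference was called (-1.02, adjusted p = 0.0146). The order of Bmp2 on the P5 arrays was that of Kdr, an endothelial receptor gene, at 5.86, 6.91 and 7.97, and the part of endothelial RNA in the result was not tested. Bmp6, the partner of BMP2 in iron control, was called higher at P5 by 0.26 ± 0.087 (adjusted p = 0.0481), a call lost in 8 of 9 omissions of a single array, all but that of E15.5 array 2 (0.18 to 0.29, adjusted p = 0.0607 to 0.146). At P10 Bmp6 differed by 0.25 ± 0.087 (adjusted p = 0.051), and without E15.5 array 2 or P5 array 2 it was called (0.30 and 0.25, adjusted p = 0.0432 and 0.0451). Bmp6 at P5 was 0.19 without P5 arrays 2 and 3 (adjusted p = 0.296).

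The remaining BMP and GDF genes gave no call: Bmp3, Bmp4, Bmp7, Bmp8a, Bmp8b, Bmp15, Gdf3, Gdf5, Gdf6, Gdf7 and Gdf9. Bmp4, a mesenchymal ligand, was the one with the largest P10 difference of these, -0.39 ± 0.15 (adjusted p = 0.0738), and it was called without P10 array 2 (-0.51, adjusted p = 0.0321). Without P5 array 3, Bmp8b was called higher at P5 (0.24, adjusted p = 0.0335, against 0.07 ± 0.13 with all arrays). Over these 11 genes the differences from E15.5 ran from -0.39 to 0.24. Bmp15 and Gdf9, known from oocytes, had means below percentile 30 at all stages.

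All 3 TGF-beta ligand genes were lower at P10 than at E15.5, where 18.6% of all genes were. Tgfb1, the main fibrogenic isoform, had signals of 8.0, 7.64 and 7.67 at E15.5, 6.97, 6.92 and 6.93 at P5, and 6.92, 6.33 and 6.83 at P10. Its arrays at E15.5 lay above all postnatal ones (-0.83 ± 0.16 at P5 and -1.08 ± 0.16 at P10, adjusted p = 0.00359 and 0.000707). Tgfb2, an isoform prominent in development, went down in steps: 8.44, 8.30 and 8.73 at E15.5, 7.65, 7.65 and 7.50 at P5, and 6.38, 6.90 and 6.94 at P10. Each stage lay wholly below the one before, -0.89 ± 0.16 from E15.5 to P5 and -0.85 ± 0.16 from P5 to P10 (adjusted p = 0.0029 and 0.0237), and P10 was 3.36-fold below E15.5. The second step was not called without P5 array 1 or P5 array 2 (-0.83, adjusted p = 0.0675 to 0.0713). Tgfb3, an isoform of mesenchyme, read 7.89, 7.60 and 8.11 at E15.5, 7.09, 7.61 and 6.95 at P5, and 5.37, 5.34 and 6.19 at P10. Here P5 overlapped E15.5 (-0.65 ± 0.26, adjusted p = 0.0943) and P10 lay below both (-2.23 ± 0.26 from E15.5, 4.7-fold lower, and -1.58 ± 0.26 from P5). The P5 difference was called without P5 array 2 (-0.85, adjusted p = 0.048) or P10 array 3 (-0.65, adjusted p = 0.036), and the step from P5 to P10 was lost without P10 array 2 (-1.44, adjusted p = 0.0536). The P10 mean of Tgfb3 lay below percentile 30, so its decrease may be understated. Without P5 arrays 2 and 3, Tgfb1 at P5 (-0.80, adjusted p = 0.0642), Tgfb2 at P5 (-0.84, adjusted p = 0.0569) and the steps from P5 to P10 of Tgfb2 (-0.91, adjusted p = 0.126) and Tgfb3 (-1.46, adjusted p = 0.0934) were not called. Markers of other cells fell on the same arrays. Of 4 megakaryocyte markers, 3 fell at both stages, among them Pf4 (-2.72 ± 0.40 at P5 and -2.53 ± 0.40 at P10) and Ppbp (-2.69 ± 0.30 at P5 and -2.58 ± 0.30 at P10), platelet chemokine genes. Their log2 summed signal was 9.22 to 10.22 at E15.5, 7.95 to 8.14 at P5 and 7.98 to 8.20 at P10. Of 8 smooth muscle and portal fibroblast markers, 3 fell and 1 rose at P5 and 4 fell at P10, with a log2 summed signal of 12.05 to 12.55, 11.11 to 11.75 and 10.19 to 10.68. The part of these cells in the TGF-beta ligand decreases was not tested.

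Activin and inhibin subunit genes moved the other way, except for Inha. These subunits pair into activins, or into inhibins when the alpha subunit of Inha takes part. At P5, 4 of 5 rose (80%, against 17.9% of all genes) and 1 fell (20%, against 17.7%). At P10, 3 rose (60%, against 20.1%) and 1 fell (20%, against 18.6%). Inhbc, which encodes the beta C subunit made by hepatocytes, had signals of 6.34, 6.35 and 6.49 at E15.5, 9.37, 9.17 and 9.53 at P5, and 9.60, 9.57 and 9.86 at P10. The postnatal arrays all stood above the fetal ones, 7.82-fold at P5 and 9.76-fold at P10 (2.97 ± 0.11 at P5 and 3.29 ± 0.11 at P10, adjusted p = 3.65e-07 and 1.45e-07). Inhbe, the beta E subunit gene and likewise a hepatocyte gene, read 5.83, 5.59 and 5.57 at E15.5, 7.36, 7.88 and 7.07 at P5, and 6.29, 6.32 and 6.49 at P10. It was highest at P5, 1.77 ± 0.19 above E15.5, and lower again at P10, -1.07 ± 0.19 from P5 (adjusted p = 0.000114 and 0.0151). At P10 it was still called above E15.5 (0.70 ± 0.19), though not without E15.5 array 2, E15.5 array 3 or P10 array 3 (0.64 to 0.66, adjusted p = 0.053 to 0.0573). The step from P5 to P10 was lost without P10 array 1 or P10 array 2 (-1.05 to -1.03, adjusted p = 0.0508 to 0.0599). The E15.5 mean of Inhbe lay below percentile 30, so its rise may be understated. On the same arrays 9 of 10 hepatocyte markers were higher at P5 and 7 of 10 at P10, and their part in these rises was not tested.

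Inhbe and Inhbc are direct neighbours on chromosome 10. Their promoter windows are shown as the counterpart of the Gdf10 and Gdf2 pair, at chr10:127351799-127352098, minus strand, and chr10:127370499-127370798, minus strand (GRCm38.p6). Neither holds the TATA box, the GC-rich Smad motif or the palindromic Smad box GTCTAGAC, so no base is in capitals.
Inhbe: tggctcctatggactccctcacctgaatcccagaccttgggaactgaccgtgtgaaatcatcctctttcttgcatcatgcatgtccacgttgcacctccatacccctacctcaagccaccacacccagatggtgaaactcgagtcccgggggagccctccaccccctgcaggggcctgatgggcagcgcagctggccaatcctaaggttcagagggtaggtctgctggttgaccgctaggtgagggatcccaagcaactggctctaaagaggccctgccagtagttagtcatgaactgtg
Inhbc: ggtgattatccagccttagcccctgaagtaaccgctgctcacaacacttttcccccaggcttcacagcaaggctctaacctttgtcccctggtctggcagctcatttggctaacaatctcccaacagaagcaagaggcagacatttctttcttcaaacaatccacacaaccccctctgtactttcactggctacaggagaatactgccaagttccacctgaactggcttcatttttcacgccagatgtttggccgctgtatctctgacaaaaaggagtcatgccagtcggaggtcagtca
Of the 68 members, 5 pairs were direct neighbours, and the other 3 were Acvr1c with Acvr1, Smad3 with Smad6 and Acvrl1 with Acvr1b. Acvr1c and Acvr1 were both lower at P5 and P10, Smad3 and Smad6 were both lower at P5, and Acvrl1 and Acvr1b gave no call.

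Inhba, which encodes the subunit of activin A, was high at P5: 7.80, 7.45 and 7.99 at E15.5, 8.52, 9.04 and 9.17 at P5, and 8.08, 7.84 and 8.11 at P10. All P5 arrays lay above the other 6, by 1.16 ± 0.19 over E15.5 (adjusted p = 0.00155), and P10 was -0.90 ± 0.19 from P5 (adjusted p = 0.0332). Leaving out E15.5 array 1, P5 array 2, P5 array 3 or any P10 array ended this last call (-0.95 to -0.77, adjusted p = 0.0619 to 0.119). Without both P5 arrays 2 and 3, Inhba at P5 stayed called (0.77, adjusted p = 0.0389), and P10 minus P5 was -0.51 (adjusted p = 0.265). Inhbb, of activin B, read 6.53, 6.74 and 6.54 at E15.5, 7.83, 7.51 and 7.55 at P5, and 7.46, 7.77 and 7.43 at P10. It was called higher at both stages (1.02 ± 0.12 at P5 and 0.95 ± 0.12 at P10, adjusted p = 0.000256 and 0.000316). Inha fell, with signals of 7.08, 6.68 and 7.05 at E15.5, 6.02, 6.02 and 5.75 at P5, and 6.18, 5.94 and 6.14 at P10 and differences of -1.01 ± 0.13 at P5 and -0.85 ± 0.13 at P10 (adjusted p = 0.000391 and 0.000837).

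**Figure D3:**
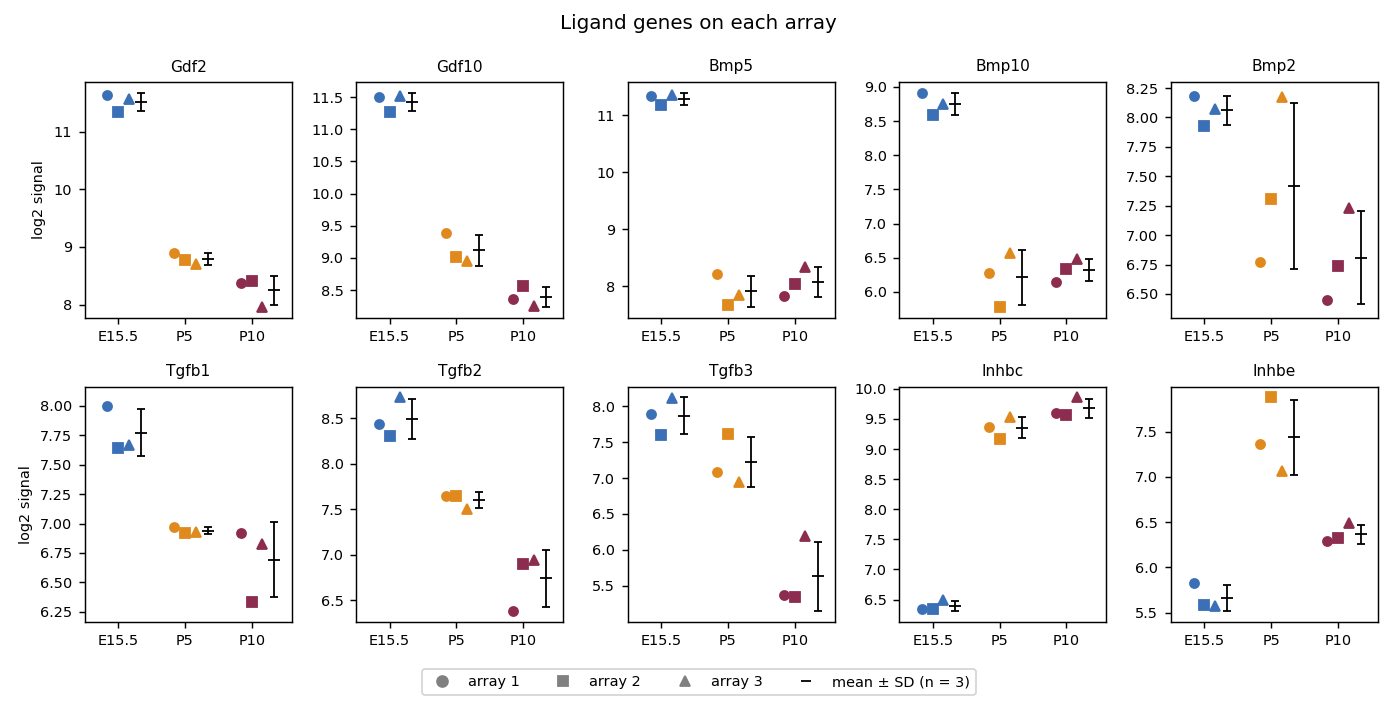
Log2 signal (y axis) of 10 ligand genes on each of the 9 arrays, by stage (x axis), with array numbers as symbols and mean ± SD beside them (n = 3). Gdf2, Gdf10, Bmp5 and Bmp10 lie lower after birth, Tgfb2 steps down at each stage, Bmp2 spreads from 6.77 to 8.17 within P5, and Inhbc and Inhbe are higher after birth.

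Most receptor genes fell at both postnatal stages. Of 13 receptor and co-receptor genes, 9 fell and 0 rose at P5, and 9 fell and 0 rose at P10, with medians of -0.99 and -1.26 (0.03 and 0.02 over all genes, of which 17.7% and 18.6% fell). At an unadjusted p under 0.05 in limma, 1 was higher at P5 and 0 at P10, beside 4470 and 4747 of all 19938 genes. Tgfbr3 encodes betaglycan, which presents TGF-beta2 to its receptors and binds inhibin. Its signals were 10.56, 10.42 and 10.52 at E15.5, 8.05, 8.01 and 8.10 at P5, and 7.39, 7.66 and 7.24 at P10. Each stage lay below the one before with no overlap, and P10 was 8.37-fold below E15.5 (-2.44 ± 0.10 at P5 and -3.07 ± 0.10 at P10, and -0.62 ± 0.10 from P5 to P10, adjusted p = 0.0127). Without P5 arrays 2 and 3 the step from P5 to P10 was not called (-0.62, adjusted p = 0.103). Bambi, a pseudoreceptor without kinase activity that dampens the pathway in stellate cells, read 9.62, 9.59 and 9.47 at E15.5, 8.07, 7.47 and 7.56 at P5, and 7.61, 7.66 and 7.67 at P10. The postnatal stages overlapped each other and lay below E15.5 (-1.86 ± 0.14 at P5 and -1.92 ± 0.14 at P10, adjusted p = 1.71e-05 and 1.01e-05).

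Among type I receptors, Acvr1, which encodes the BMP receptor ALK2, gave tight values: 9.07, 8.98 and 9.11 at E15.5, 7.24, 7.19 and 7.29 at P5, and 7.04, 6.89 and 7.05 at P10. Both postnatal stages lay below the fetal arrays (-1.81 ± 0.067 at P5 and -2.06 ± 0.067 at P10, 3.52-fold and 4.16-fold lower, adjusted p = 3.20e-07 and 1.17e-07). Tgfbr1, the TGF-beta type I receptor ALK5, read 8.87, 8.91 and 9.10 at E15.5, 7.47, 7.58 and 8.34 at P5, and 7.05, 7.22 and 6.86 at P10. P5 array 3 was the highest postnatal array, and the difference was -1.16 ± 0.22 at P5 and -1.92 ± 0.22 at P10 (adjusted p = 0.00302 and 0.000133). Bmpr1a, the BMP receptor ALK3, had 9.37, 9.36 and 9.34 at E15.5, 7.85, 9.08 and 8.18 at P5, and 8.07, 8.06 and 8.16 at P10. P5 array 2 stood apart from the other P5 arrays, and the P5 difference of -0.99 ± 0.26 was not called without any 1 of the E15.5 arrays or P5 array 3 (-0.99 to -0.89, adjusted p = 0.0508 to 0.0575). Without P5 arrays 2 and 3 it was -1.51 (adjusted p = 7.91e-05), and at P10 it was -1.26 ± 0.26 (adjusted p = 0.00491). Acvr1c, encoding ALK7, was dim at all stages and differed by -0.33 ± 0.10 at P5 and -0.31 ± 0.10 at P10, which leaving out E15.5 array 1 or 3, P5 array 2 or 3 (at P5) or P10 array 2 or 3 (at P10) ended, with adjusted p = 0.0644 to 0.124 and differences of -0.35 to -0.23. After quantile normalisation neither was called, nor were they without P5 arrays 2 and 3 (-0.24, adjusted p = 0.294, and -0.31, adjusted p = 0.0603).

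Acvr1b, Acvrl1 and Bmpr1b gave no call. Acvr1b, the activin receptor ALK4, had P5 arrays at 6.42, 6.72 and 7.07 and differed by 0.40 ± 0.16 (adjusted p = 0.0839). Without P5 array 1 it was called higher at P5 (0.56, adjusted p = 0.0145) and lower from P5 to P10 (-0.78, adjusted p = 0.0244). Acvrl1, the endothelial BMP9 and BMP10 receptor ALK1, lay between 6.36 and 6.76 on all arrays, with a P10 difference of -0.03 ± 0.090. The genes of its ligands BMP9 and BMP10 were called lower at both stages, and Acvrl1 at neither.

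Of the 4 type II receptor genes, 3 fell at both stages, 75% against 17.7% of all genes at P5 and 18.6% at P10. Acvr2a, an activin and BMP receptor, read 9.82, 9.76 and 10.06 at E15.5, 8.06, 7.91 and 8.06 at P5, and 8.11, 8.02 and 7.72 at P10. The postnatal stages lay together, -1.87 ± 0.12 and -1.93 ± 0.12 from E15.5 (adjusted p = 6.20e-06 and 3.58e-06). Bmpr2, the BMP type II receptor, had 10.26, 10.06 and 10.51 at E15.5, 8.62, 8.44 and 8.90 at P5, and 8.03, 8.10 and 8.44 at P10. All postnatal arrays lay below the fetal ones (-1.62 ± 0.16 at P5 and -2.09 ± 0.16 at P10, 4.26-fold lower at P10). Tgfbr2, the TGF-beta type II receptor, changed less (-0.39 ± 0.10 at P5 and -0.61 ± 0.10 at P10), and its P5 call ended without E15.5 array 2 or P5 array 1 (-0.32 to -0.31, adjusted p = 0.0538 to 0.0572). Acvr2b stayed within 6.68 to 6.90 on all arrays (-0.04 ± 0.078 at P5 and -0.04 ± 0.078 at P10, not called). All 12 stellate markers were lower at P5 and 11 of 12 at P10 on the same arrays, and their part in the receptor decreases was not tested.

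**Figure D4:**
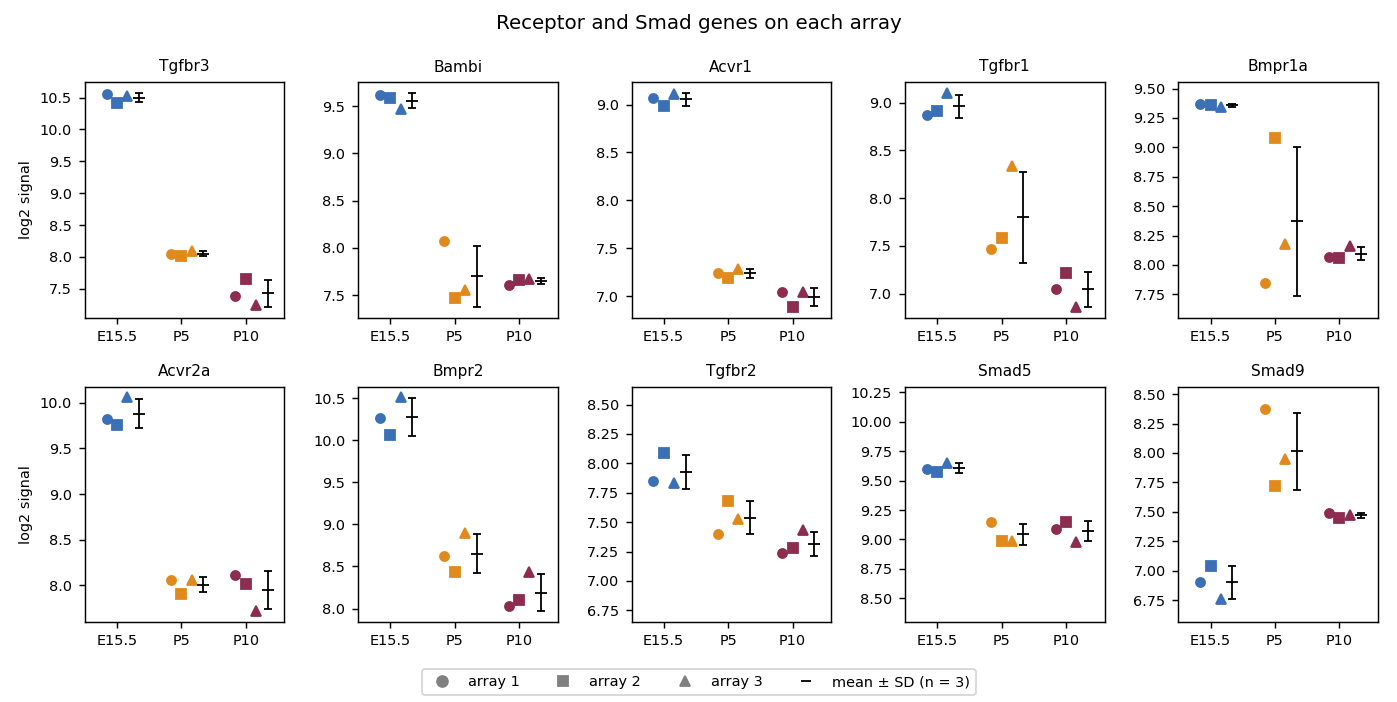
Log2 signal (y axis) of 8 receptor genes and 2 Smad genes on each array, by stage (x axis), with array numbers as symbols and mean ± SD beside them (n = 3). Tgfbr3 and Acvr1 part cleanly between stages before and after birth, Bmpr1a spreads from 7.85 to 9.08 within P5, and Smad9 is the gene that rose.

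Of 8 Smad genes, with median differences of -0.30 at P5 and -0.20 at P10, 1 rose, 3 fell and 4 did not pass at each postnatal stage, where 17.9% of all genes rose and 17.7% fell at P5 and 20.1% and 18.6% at P10. Smad1, Smad2 and Smad4, a BMP Smad, a TGF-beta Smad and the shared partner, gave no call, with differences between -0.22 and 0.15 from E15.5. Without E15.5 array 2, Smad2 was called lower at P5 (-0.33, adjusted p = 0.0436). Smad5, a BMP Smad, fell by a small and even amount (-0.56 ± 0.069 at P5 and -0.53 ± 0.069 at P10, adjusted p = 0.000282 and 0.000301). Smad9, the third BMP Smad and itself a BMP target, rose: 6.90, 7.04 and 6.76 at E15.5, 8.37, 7.72 and 7.95 at P5, and 7.49, 7.45 and 7.47 at P10. All postnatal arrays lay above the fetal ones (1.11 ± 0.15 at P5 and 0.57 ± 0.15 at P10, adjusted p = 0.000509 and 0.016). The P10 call ended without E15.5 array 3 (0.50, adjusted p = 0.0604), and without P5 array 2 the step from P5 to P10 was called (-0.69, adjusted p = 0.0357). Smad3, of the TGF-beta side, was lower at P5 (-0.61 ± 0.15, adjusted p = 0.0113) and not called at P10 (-0.26 ± 0.15), and P10 minus P5 was 0.36 ± 0.15 (adjusted p = 0.248).

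Both inhibitory Smads, feedback targets of the pathway, were lower at P10. Smad6, the BMP-side inhibitor, had signals of 7.91, 7.60 and 7.52 at E15.5, 7.21, 7.03 and 6.78 at P5, and 7.04, 6.93 and 6.66 at P10. The difference was -0.67 ± 0.15 at P5 and -0.80 ± 0.15 at P10 (adjusted p = 0.00787 and 0.00263), and without P5 arrays 2 and 3 it was -0.47 at P5 (adjusted p = 0.133). Smad7, which blocks both branches, differed by -0.39 ± 0.20 at P5 (adjusted p = 0.173) and -0.79 ± 0.20 at P10 (adjusted p = 0.0121), and without E15.5 array 3 it was called at P5 (-0.61, adjusted p = 0.0144). Among the 59 member windows searched, that of Smad6 was the one that holds the Smad box GTCTAGAC, which 70 of 32851 windows hold (0.213%). Not all members had a window in this search, so the box may also lie before members that were not searched. Smad7 may be among those, so the search does not set Smad6 apart from Smad7. The Smad6 window is shown for its match, at chr9:64022010-64022309, minus strand (GRCm38.p6), with the match in capitals from position -4.
Smad6: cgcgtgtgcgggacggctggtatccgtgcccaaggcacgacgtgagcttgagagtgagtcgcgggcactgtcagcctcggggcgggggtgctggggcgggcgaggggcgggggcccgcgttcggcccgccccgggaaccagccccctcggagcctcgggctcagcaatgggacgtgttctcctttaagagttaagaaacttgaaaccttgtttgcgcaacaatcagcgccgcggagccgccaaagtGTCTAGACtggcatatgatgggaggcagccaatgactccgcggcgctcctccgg

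The 4 Id genes, which encode inhibitors of basic helix-loop-helix factors and are classical BMP targets, did not move together. At P5, 3 rose (75%, against 17.9% of all genes) and 1 fell (25%, against 17.7%). At P10, Id2 rose (25%, against 20.1%), Id3 fell (25%, against 18.6%) and the others did not pass. Id3 read 10.54, 10.52 and 10.03 at E15.5, 9.48, 9.65 and 9.16 at P5, and 7.42, 7.90 and 7.95 at P10. Each stage lay wholly below the one before, -0.94 ± 0.20 at P5 and -2.60 ± 0.20 at P10 from E15.5, 6.08-fold at P10 (adjusted p = 0.00606 and 1.27e-05), and -1.67 ± 0.20 from P5 to P10 (adjusted p = 0.00318). Id2 went the other way with 10.37, 10.12 and 9.58 at E15.5, 11.64, 11.73 and 11.45 at P5, and 10.76, 10.98 and 11.35 at P10. Its postnatal arrays were all above E15.5 (1.58 ± 0.22 at P5 and 1.01 ± 0.22 at P10, adjusted p = 0.00054 and 0.00569). Their promoter windows are set beside each other because the genes moved in opposite directions, Id2 at chr12:25096043-25096342, minus strand, and Id3 at chr4:136143572-136143871, plus strand (GRCm38.p6).
Id2: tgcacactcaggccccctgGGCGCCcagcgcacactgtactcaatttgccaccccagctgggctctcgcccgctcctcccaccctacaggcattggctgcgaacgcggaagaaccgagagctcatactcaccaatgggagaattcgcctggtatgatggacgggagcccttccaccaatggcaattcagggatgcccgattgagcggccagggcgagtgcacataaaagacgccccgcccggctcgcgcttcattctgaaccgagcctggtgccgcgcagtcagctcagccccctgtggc
Id3: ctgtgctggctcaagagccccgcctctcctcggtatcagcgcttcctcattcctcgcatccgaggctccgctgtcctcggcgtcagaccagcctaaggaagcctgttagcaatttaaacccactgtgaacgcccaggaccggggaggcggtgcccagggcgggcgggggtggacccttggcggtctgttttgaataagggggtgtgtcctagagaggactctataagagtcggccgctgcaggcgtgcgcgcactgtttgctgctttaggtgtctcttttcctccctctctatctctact
That of Id2 holds GGCGCC from position -231, in capitals, and that of Id3 holds none of the 3 motifs.

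Id1 was highest on 2 of the P5 arrays: 9.02, 8.93 and 8.20 at E15.5, 9.13, 10.35 and 10.20 at P5, and 7.81, 8.87 and 8.24 at P10. P5 array 1 lay just above the highest E15.5 array, and the P5 difference was 1.18 ± 0.39 (adjusted p = 0.046). Leaving out any E15.5 array, P5 array 2, P5 array 3 or P10 array 3 ended the call (0.92 to 1.33, adjusted p = 0.0651 to 0.152), and without both P5 arrays 2 and 3 the difference was 0.41 (adjusted p = 0.581). P10 minus P5 was -1.58 ± 0.39 (adjusted p = 0.0563), and it was called without P5 array 1 (-1.97, adjusted p = 0.0263). Id1 and Clec4g were highest on the same P5 arrays, and the part of endothelial RNA was not tested. Id4 rose slightly at P5 (0.39 ± 0.10, adjusted p = 0.0151), not without E15.5 array 1 (0.33, adjusted p = 0.0564) and not without P5 arrays 2 and 3 (0.23, adjusted p = 0.178). In that fit Id3 at P5 was -0.89 (adjusted p = 0.0582).

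Latent TGF-beta binding proteins tie latent TGF-beta to the matrix, and 3 of 4 fell by P10, 75% against 18.6% of all genes. Ltbp1 had signals of 8.87, 8.66 and 8.40 at E15.5, 8.15, 8.10 and 8.10 at P5, and 7.28, 7.01 and 7.21 at P10. The stages did not overlap, with -0.52 ± 0.12 at P5 and -1.48 ± 0.12 at P10 and -0.95 ± 0.12 from P5 to P10 (adjusted p = 0.00901, 1.87e-05 and 0.00396). Ltbp4 was not called at P5 (-0.13 ± 0.12, adjusted p = 0.468) and fell from P5 to P10 (-0.77 ± 0.12, adjusted p = 0.0113). Ltbp3 was lower at P10 (-0.48 ± 0.11, adjusted p = 0.00655), and at P5 it was called without P5 array 2 (-0.33, adjusted p = 0.0372). In the fit without P5 arrays 2 and 3, Ltbp1 at P5 (-0.49, adjusted p = 0.111) and the steps from P5 to P10 of Ltbp1 (-0.99, adjusted p = 0.0514) and Ltbp4 (-0.77, adjusted p = 0.102) were not called. Ltbp2, which differs from the others in that it binds no latent TGF-beta, rose at P5: 6.36, 6.61 and 6.66 at E15.5, 7.27, 7.0 and 7.02 at P5, and 6.70, 6.78 and 6.77 at P10. All P5 arrays were above the other 6, and the call was at P5 (0.55 ± 0.10, adjusted p = 0.00295) and not at P10 (0.21 ± 0.10).

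Of the secreted antagonists, Chrdl1 fell and Fst was high at P5. Chrdl1, a chordin-like BMP antagonist, read 6.75, 6.17 and 6.76 at E15.5, 5.68, 5.69 and 5.64 at P5, and 5.36, 5.55 and 5.67 at P10 (-0.89 ± 0.16 at P5 and -1.03 ± 0.16 at P10, adjusted p = 0.00232 and 0.000825). Its postnatal means lay below percentile 30, so the decrease may be understated. Fst encodes follistatin, which binds activin, and read 7.18, 7.33 and 7.20 at E15.5, 7.88, 7.40 and 7.86 at P5, and 7.29, 6.95 and 7.14 at P10. P5 was 0.48 ± 0.14 above E15.5 (adjusted p = 0.0283) and P10 -0.59 ± 0.14 from P5 (adjusted p = 0.0496). The rise was lost without E15.5 array 1 or 3 or P5 array 1 or 3 (0.39 to 0.46, adjusted p = 0.0801 to 0.0925). The decrease was lost in 8 of 9 omissions of a single array, all but that of P5 array 2 (-0.67 to -0.50, adjusted p = 0.0644 to 0.16), and neither quantile normalisation nor centring kept it. Inhba, Fst and Ltbp2 were all highest at P5, where mesothelial markers were too. The log2 summed signal of 7 mesothelial genes was 10.71 to 10.87 at E15.5, 11.37 to 11.75 at P5 and 9.23 to 9.61 at P10, with 5 raised and 1 lowered from E15.5 to P5, and all 7 lower at P10 than at P5. Cholangiocyte markers were highest at P5 as well, with a log2 summed signal of 4 genes of 8.80 to 9.22, 10.15 to 10.48 and 9.27 to 9.33, and 3 of 4 higher at P5 than at E15.5. Of these 4, Krt19, which is also in the mesothelial list, and Sox9 were lower at P10 than at P5 (-1.71 ± 0.20 and -0.95 ± 0.15). The part of either cell type in the P5 levels was not tested. Nog, Chrd, Chrdl2 and Grem1, encoding noggin, chordin, a chordin-like protein and gremlin 1, gave no call, with differences from E15.5 between -0.16 and 0.23.

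Fstl1, a secreted glycoprotein of mesenchyme with a follistatin domain, gave one of the steepest decreases: 11.34, 10.98 and 11.19 at E15.5, 9.24, 8.97 and 9.16 at P5, and 7.72, 7.90 and 7.97 at P10. Each stage lay below the one before, -2.05 ± 0.12 at P5 and a further -1.26 ± 0.12 from P5 to P10 (adjusted p = 3.15e-06 and 0.000974), so that P10 was 9.9-fold below E15.5. Fstl3, Fstl4 and Fstl5 gave no call, and Fstl4 and Fstl5 were below percentile 30 at all stages. Of the 3 members whose symbol matches but whose role is another, Bmp1, a procollagen protease, fell (-0.38 ± 0.081 at P5 and -0.63 ± 0.081 at P10), as did Bmp2k, a kinase of endocytosis, with 7.21, 7.22 and 7.36 at E15.5, 6.16, 6.26 and 6.47 at P5, and 6.03, 6.71 and 6.21 at P10 (-0.97 ± 0.16 at P5 and -0.95 ± 0.16 at P10). Tgfbrap1, a vesicle-tethering protein, was higher at P10 (0.94 ± 0.20, adjusted p = 0.0051), and also at P5 without P5 array 1 (0.72, adjusted p = 0.0173). Bmp1 at P5 was -0.34 without P5 arrays 2 and 3 (adjusted p = 0.0827).

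**Figure D5:**
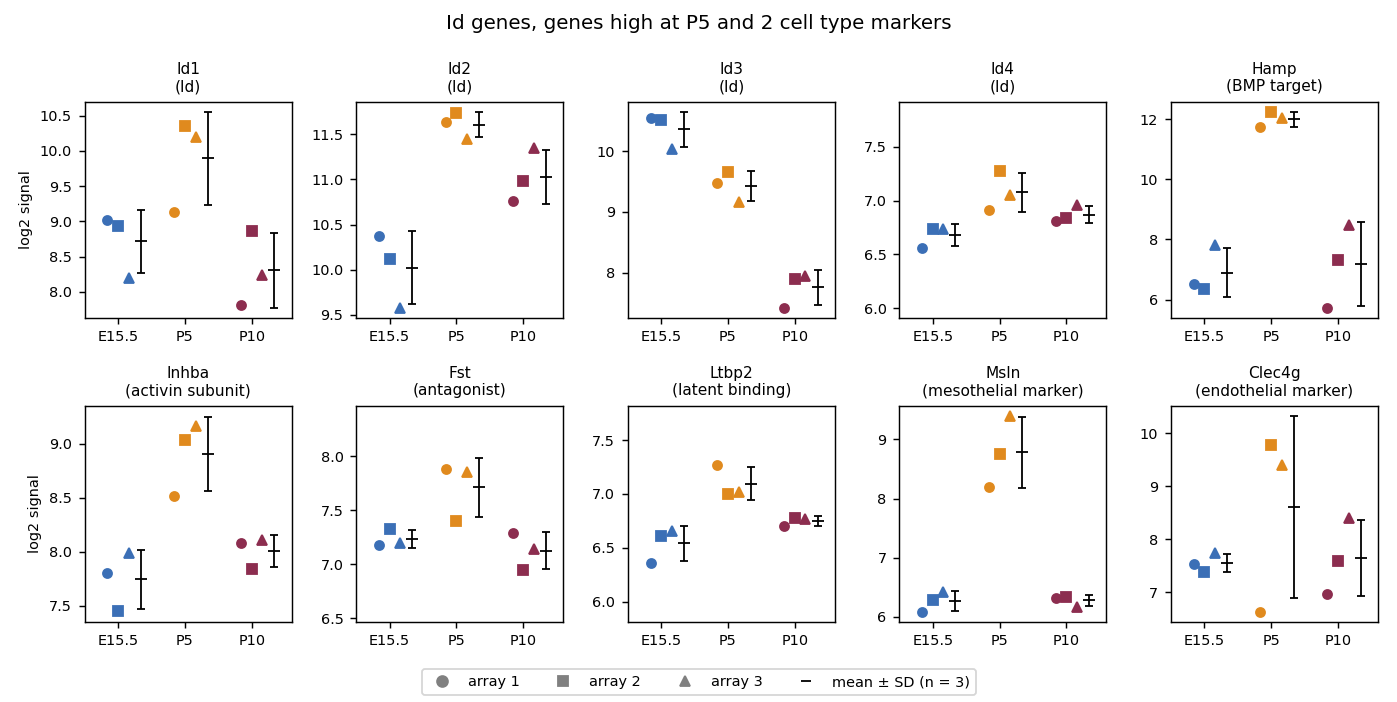
Log2 signal (y axis) by stage (x axis) of the 4 Id genes, the BMP target Hamp, the members Inhba, Fst and Ltbp2 with their highest values at P5, and the markers Msln (mesothelial) and Clec4g (endothelial), with array numbers as symbols and mean ± SD (n = 3). Id2 and Id3 move apart, Hamp is above 11.7 on P5 arrays only, and Clec4g and Id1 are highest on P5 arrays 2 and 3.

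Other genes of the pathway, which the symbol rule does not hold, were followed as 72 entries in 4 lists, of which 69 were measured. At P5, 10 rose and 22 fell (14.5% and 31.9%, against 17.9% and 17.7% of all genes), and at P10, 10 rose and 23 fell (14.5% and 33.3%, against 20.1% and 18.6%). Without P5 arrays 2 and 3, more rose and fewer fell at P5, where fewer of all genes were called. From P5 to P10, 0 rose and 9 fell, against 2.76% and 2.89% of all genes. At an unadjusted p under 0.05 in limma, 3 were higher and 14 lower, beside 1995 and 1616 of all 19938 genes. Quantile normalisation gave 21 higher and 23 lower at P5 and 24 higher and 23 lower at P10. Of all genes, 48% were then called at P5 and 56.8% at P10.

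Among 24 extracellular regulators, 1 rose and 10 fell at each postnatal stage (4.17% and 41.7%, against 17.9% and 17.7% of all genes at P5 and 20.1% and 18.6% at P10). Fbn2, a fibrillin that carries latent complexes, fell (-2.68 ± 0.19 at P5 and -3.25 ± 0.19 at P10), as did Bgn (-1.64 ± 0.20 at P5 and -2.0 ± 0.20 at P10) and Dcn (-1.02 ± 0.17 at P5 and -1.49 ± 0.17 at P10), proteoglycans that bind TGF-beta. Emilin1 (-1.14 ± 0.12 at P5 and -1.34 ± 0.12 at P10), which restrains TGF-beta processing, and Thbs1 (-0.79 ± 0.18 at P5 and -1.55 ± 0.18 at P10), which activates latent TGF-beta, were lower too. Wfikkn2, a binder of GDF8 and GDF11, fell through its brighter probe set (-1.26 ± 0.23 at P5 and -1.49 ± 0.23 at P10), while its dimmer one differed by 0.06 at P5 and was not called. Dand5, a Nodal and BMP antagonist, was the gene that rose (0.32 ± 0.076 at P5 and 0.41 ± 0.076 at P10). Thbs1 at P5 was -0.80 without P5 arrays 2 and 3 (adjusted p = 0.0861). From P5 to P10 Thbs1 differed by -0.77 ± 0.18 (adjusted p = 0.0428), a call lost without E15.5 array 1 or any 1 of the 6 postnatal arrays (adjusted p = 0.0612 to 0.133, differences -0.87 to -0.69) and without P5 arrays 2 and 3 together (-0.76, adjusted p = 0.217).

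In the list of 15 receptors and activating proteins, 3 rose and 6 fell at P5, and 2 rose and 6 fell at P10. The share that rose, 20% and 13.3%, was near or below that of all genes (17.9% and 20.1%), and 40% fell at both stages against 17.7% and 18.6%. Neo1, which encodes neogenin, a receptor of the BMP co-receptor RGM proteins, fell at each stage (-1.79 ± 0.070 at P5 and -3.06 ± 0.070 at P10, and -1.27 ± 0.070 from P5 to P10, adjusted p = 0.000253). The endoglin gene Eng fell (-1.06 ± 0.092 at P5 and -1.52 ± 0.092 at P10), as did Itgav (-1.85 ± 0.12 at P5 and -2.43 ± 0.12 at P10) and Itgb8 (-0.51 ± 0.073 at P5 and -0.66 ± 0.073 at P10), whose integrin activates latent TGF-beta, and Lrrc32 (-0.78 ± 0.17 at P5 and -1.52 ± 0.17 at P10), whose protein GARP holds latent TGF-beta at the cell surface. The genes that rose were Hjv (1.64 ± 0.18 at P5 and 1.25 ± 0.18 at P10), the hemojuvelin co-receptor of BMP6, and Tmprss6 (0.86 ± 0.12 at P5 and 0.88 ± 0.12 at P10), the protease that cleaves it, with Furin, a proprotein convertase, called at P5 (0.53 ± 0.13). At P10 Furin differed by 0.33 ± 0.13 (adjusted p = 0.0881), and it was called without P5 array 3 (0.33, adjusted p = 0.00377) and without P5 arrays 2 and 3 (0.33, adjusted p = 0.0062).

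Among 17 intracellular regulators, 5 were higher and 1 lower at P5, and 6 were higher and 2 lower at P10. The 35.3% called at P5 is at the background of 35.6%, and 47.1% were called at P10 against 38.7% of all genes. The share that rose was 29.4% and 35.3%, against 17.9% and 20.1%, and the share that fell was 5.88% and 11.8%, against 17.7% and 18.6%. Nedd4l, a ubiquitin ligase for activated Smad2 and Smad3, rose from 7.14 to 7.27 at E15.5 to 8.99 to 9.29 after birth (1.95 ± 0.078 at P5 and 1.83 ± 0.078 at P10). The Smad2 corepressor gene Tgif1 (1.11 ± 0.19 at P5 and 0.77 ± 0.19 at P10) and Ppm1a (0.58 ± 0.12 at P5 and 0.82 ± 0.12 at P10), a Smad phosphatase, rose as well, and Skil, the SnoN corepressor, by less (0.27 ± 0.076 at P5 and 0.40 ± 0.076 at P10). Lemd3, an inner nuclear membrane protein that binds Smads, fell (-1.67 ± 0.23 at P5 and -2.05 ± 0.23 at P10), and the feedback inhibitor Pmepa1 was lower at P10 (-0.65 ± 0.16). Ldlrad4, which keeps Smads from their receptor, rose at both stages (0.79 ± 0.16 at P5 and 0.54 ± 0.16 at P10), and leaving out any E15.5 or P10 array ended its P10 call (0.48 to 0.58, adjusted p = 0.0537 to 0.0992). Skil at P5 was not called without E15.5 array 1, E15.5 array 2 or P5 array 2 (0.24 to 0.28, adjusted p = 0.0538 to 0.0728), nor without P5 arrays 2 and 3 together (0.24, adjusted p = 0.178).

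Of 13 measured target genes, 1 rose and 5 fell at each postnatal stage. The 7.69% that rose lies below the 17.9% and 20.1% of all genes, and the 38.5% that fell compares with 17.7% and 18.6%. Hamp, the hepcidin gene that BMP signals induce in hepatocytes, had signals of 6.51, 6.35 and 7.83 at E15.5, 11.72, 12.23 and 12.02 at P5, and 5.73, 7.33 and 8.49 at P10. All P5 arrays stood far above the other 6, 34.1-fold over E15.5 (5.09 ± 0.66, adjusted p = 0.000393), and P10 was -4.80 ± 0.66 from P5 (adjusted p = 0.00572). At P10 and E15.5 its arrays overlapped (0.29 ± 0.66, adjusted p = 0.782), and without P5 arrays 2 and 3 the decrease from P5 to P10 was -4.53 (adjusted p = 0.0798). Atoh8, another BMP target of liver, was higher at P10 (0.43 ± 0.13), not without E15.5 array 3, P10 array 2 or P10 array 3 (0.32 to 0.42, adjusted p = 0.0782 to 0.11). Targets known from contractile and matrix-making cells fell: Col1a1 (-0.71 ± 0.080 at P5 and -1.63 ± 0.080 at P10), Acta2 (-1.47 ± 0.34 at P5 and -2.90 ± 0.34 at P10) and Postn (-1.64 ± 0.35 at P5 and -2.80 ± 0.35 at P10), as did Dkk1 (-1.57 ± 0.11 at P5 and -1.64 ± 0.11 at P10) and Hey1 (-0.60 ± 0.18 at P5 and -0.81 ± 0.18 at P10). Ccn2 and Tgfbi, 2 widely used TGF-beta targets, gave no call (-0.18 ± 0.21 at P5 and -0.26 ± 0.21 at P10 for Ccn2, 0.06 ± 0.23 at P5 and 0.23 ± 0.23 at P10 for Tgfbi). Hey1 at P5 was lost without E15.5 array 2 or 3 or P5 array 2 or 3 (-0.63 to -0.49, adjusted p = 0.0614 to 0.103). Without both P5 arrays, Hey1 (-0.43, adjusted p = 0.284), Acta2 (-1.07, adjusted p = 0.164) and Postn (-1.34, adjusted p = 0.10) were not called at P5.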

How the data were processed

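Sorted stroma of 3 stages was measured on 9 Affymetrix arrays, 1 per sample, from Trizol RNA made into biotin-labelled cRNA. The authors deposited log2 signals per probe set from robust multi-array averaging (RMA), per the submitters' processing notes, where Expression Console and Transcriptome Analysis Console 2.0 appear as tools. For the genome build of the annotation, none is given in the sources used here.

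The probe annotation gives 1 gene symbol to 21789 of 35556 probe sets, several to 1621 and lists no entry for 12146, and 21698 symbols were updated by Entrez identifier. Each of 19938 genes was read through its brightest probe set. Stage was the sole term of a linear model fitted in limma 3.58.1 (R 4.3.3) to every gene on all 9 arrays, with 6 residual and 2.22 prior degrees of freedom. Moderated tests were 2-sided with Benjamini-Hochberg adjustment across the 19938 genes, and the code was tested on simulated data. Named genes are all members, by role, and from each list of other pathway genes up to 6 called genes of smallest adjusted p with those that went against the list. Ccn2 and Tgfbi were chosen after their values were seen. The members, lists and rules were chosen with earlier results of these data known. Promoters are from RefSeq, GRCm38.p6. Alternatives were other scalings, probe set rules, weights, filters, a replicate block and omitted arrays.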

Additional observations from a re-analysis of the deposited data

How the results depend on the processing

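Of the 84 pairs of member and comparison that were called, 65 kept direction and call under all 18 other settings listed before the added one: 29 of 37 at P5, 31 of 36 at P10 and 5 of 11 between P5 and P10. Quantile normalisation raised the higher members to 22 at P5 and 20 at P10 and the higher other pathway genes to 21 and 24. Centring gave 11 members and 16 other genes higher at P10. Of all genes, 48% were called at P5 and 56.8% at P10 after quantile normalisation, and 46.5% at P10 after centring. Between P5 and P10, 6 members were lower when only these 2 stages were fitted, where 3.56% of all genes were called. Fewer members and fewer of all genes were also called without P5 arrays 2 and 3, a fit added after the data were seen. Lower other pathway genes in that comparison numbered 5 with centring and 5 with 2 stages, and were fewer without those arrays too. Higher ones numbered 1 with array weights and were also found without those arrays. Leaving out 1 array gave 7 to 11 higher members at P5, 4 to 7 at P10 and 7 to 11 lower members between P5 and P10, with 0 to 3 higher and 3 to 7 lower other genes there. Same-numbered arrays did not deviate together across genes (r -0.08 to 0.069, 0 of 9 pairs over 0.1). The labels name no pairing, and a weak link or a link in few genes would not show in this correlation. With the replicate block, 10 members were higher and 26 lower at P5, 6 and 30 at P10, 0 and 11 between P5 and P10, where 4 other pathway genes were lower. Values that turned sign and were called on at least 1 side were Wfikkn2 at P5 with its dimmest probe set (0.06), Bmp8a (0.18), Tll2 (0.19) and Amhr2 (0.16) at P10 with quantile normalisation, and Tab1 at P5 (-0.22 without P5 array 2, and up to 0.13 over omitted arrays). The causes were not tested. Signals near background limit the size of change of dim genes such as Chrdl1, Inhbe and Tgfb3.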
